A study of Homo sapiens with 14 samples.

Results

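In HepG2, a human liver tumour cell line, 104 genes had a higher level with miR-124 than with the negative control at 16, 24 and 32 h after transfection, by a mean log2 ratio of 0.6 or more (1.52-fold). They were chosen from 13137 genes, of which they make up 0.792%, on the mean of the 3 paired log2 ratios (miR-124 minus control of the same time). A further 6 genes that met the threshold, RRAGC, FAS, PTBP2, ACTA1, SESN1 and TNRC6A, were left out by name. The series holds 14 one-colour oligonucleotide arrays, 7 of cells transfected with miR-124 and 7 of cells transfected with a negative control, with 1 array per transfection at 4, 8, 16, 24, 32, 72 and 120 h. Both arms were transfected HepG2 cells, with no untransfected array among the samples, and the dose and the sequences of the transfected RNAs are not given in the sources used here.

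miR-124 is a small RNA abundant in neurons. Loaded into an Argonaute protein, it pairs through its seed with sites in messenger RNAs and lowers them, so a direct target is expected to fall. Genes that are higher after a small RNA is added are usually read as indirect responses, for example through a lost repressor, a stress response or an arrested cell cycle.

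The ratios at 16 to 32 h chose the members and are therefore given as a description, without a test. The ratios at 4, 8, 72 and 120 h were not used for the threshold. The probe set of each gene and the level filter did use the mean over all 14 arrays. A gene high only late with miR-124 could therefore pass the filter through values that were then tested. The tests below were run on the 8 arrays of 4, 8, 72 and 120 h alone, with limma fitted over all 13137 genes. Their p-values were adjusted by the Benjamini-Hochberg method. The early ratio is the mean of the pairs at 4 and 8 h, the middle ratio that of the pairs at 16, 24 and 32 h (the middle window), the late ratio that of the pairs at 72 and 120 h, all as log2 unless called a fold, and ± marks a standard error of the fit unless called SD. The labels do not tell whether cultures were separate, so these p-values measure only the spread of the effect between times, which may be technical.

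All 8 measured liver markers, among them ALB, AFP and APOB, lay above the level filter with means of 8.85 to 13.9 on the log2 scale. Of the markers of other cells, 1 of 3 for blood (CD3D), 4 of 4 for fibroblasts, 2 of 4 for endothelium and 2 of 4 for neurons lay above it, all with means of 8.44 or lower. The miR-124 array of 4 h stood apart: its 18S probe sets averaged 11.1 log2 units, against 8.70 on the control array of that time. The 3′ minus 5′ signal of ACTB, a measure of RNA quality, was 0.357, 0.561 and 0.418 log2 with miR-124 at 16, 24 and 32 h, against 0.315, 0.271 and 0.278 in the control. At 72 and 120 h it was 0.357 and 0.411 with miR-124, against 0.237 and 0.102 in the control. The part of RNA quality in the results below was not tested. In these bulk samples, a change in the make-up of the cells and a change in RNA per cell cannot be told apart.

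The members' ratio developed gradually. The median log2 ratio over the 104 members was 0.06 and 0.10 at 4 and 8 h, then 0.50, 0.80 and 0.93 at 16, 24 and 32 h, and lastly 1.31 and 0.94 at 72 and 120 h. The median over all genes stayed between −0.02 and 0.05. At 8 h 1 member, FAM217B, had a ratio of 0.6 or more (0.85). From 16 to 32 h that count was 32, 96 and 98 members, and at 72 and 120 h it was 93 and 72. Over all genes, 0.396, 1.29 and 2.32% reached 0.6 from 16 to 32 h, and 9.94 and 8.2% at 72 and 120 h. The ratio was higher at each later time from 16 to 32 h in 73 members. These times chose the members, and the share over all genes is not given here. The time with the highest ratio was 72 h for 66 members and 120 h for 16, against 32 h for 11, 24 h for 10 and 16 h for 1 member.

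**Figure D1:**
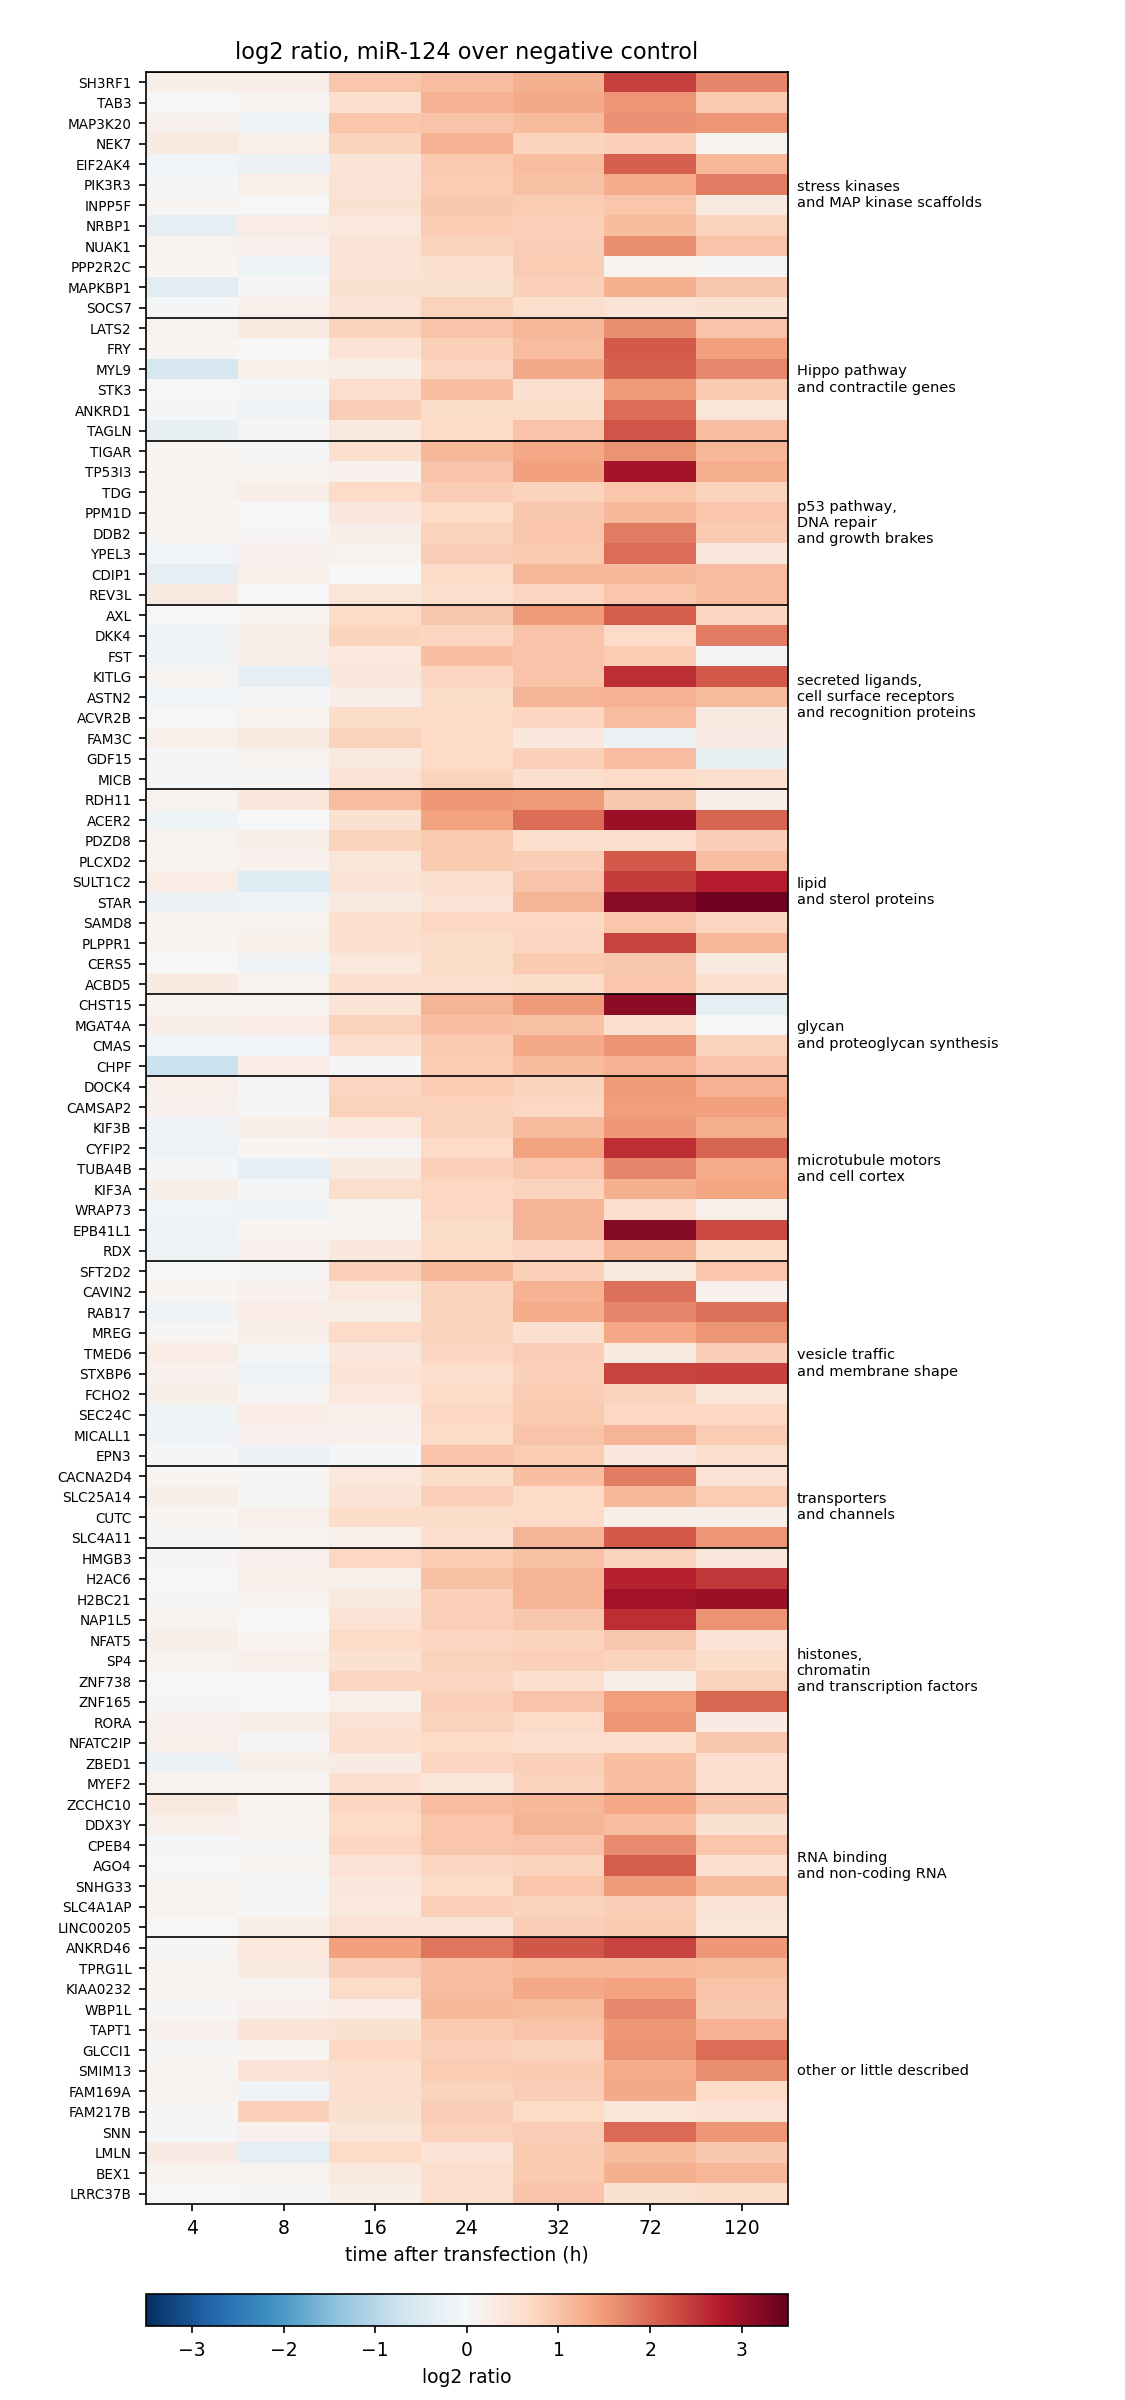
The log2 ratio of miR-124 over negative control is drawn for each of the 104 members (rows, in 12 function groups) at each time in h (columns), on a colour scale from blue (lower) through white to red (higher). Columns of 4 and 8 h are near white, red deepens from 16 h, and 66 rows are darkest at 72 h.

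The ratio was split into a change in each arm from a shared baseline, the mean of both arms at 4 and 8 h. Over the 104 members, the level at 16 to 32 h stood at a median of 0.57 above baseline with miR-124 and 0.13 below it in the control (−0.13), against medians of 0.02 and −0.01 over all genes. The rise in the miR-124 arm made up a median of 81.9% of the members' ratio, with quartiles of 47.2% and 106.5%, and 79.0% of the summed ratios. It was the larger part in 75 members, and the fall in the control was the larger part in 29. The level with miR-124 lay above baseline in 101 members and that of the control below it in 74.

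**Figure D2:**
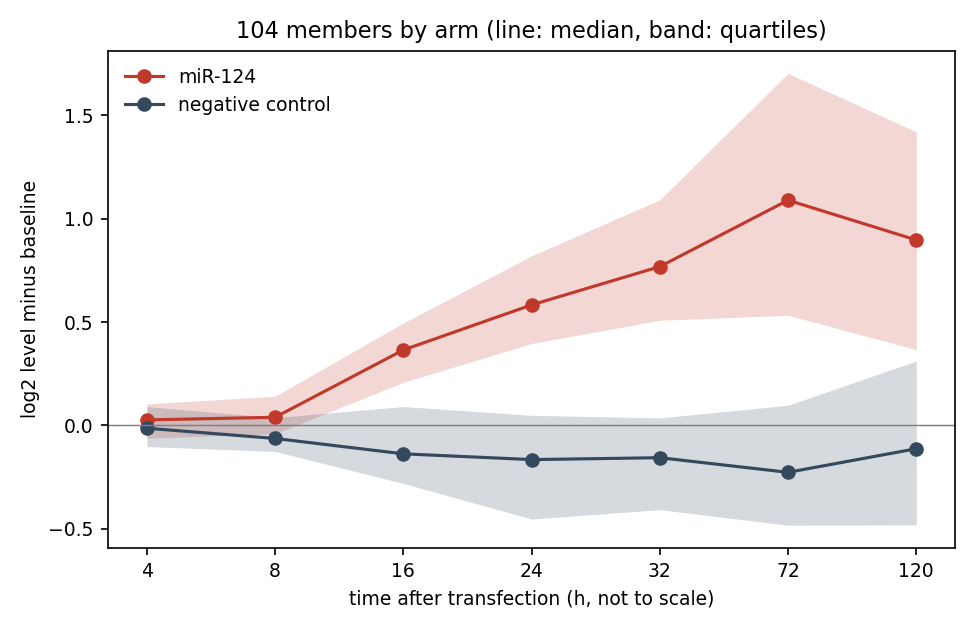
The median log2 level of the 104 members minus the baseline (mean of both arms at 4 and 8 h) is drawn for miR-124 (red) and negative control (dark blue), with bands for the quartiles over members, against time in h (evenly spaced, not to scale). The miR-124 median is 0.37 at 16 h and 1.09 at 72 h, while the control median lies between −0.23 and −0.01 throughout.

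Members fell along a range rather than into 2 kinds. In 30 members the share was above 100%, since the control also lay above baseline and the miR-124 arm went further. In 22 members it was above 100% with either early time alone as baseline, and in 21 the sign of the control's change differed between these baselines. A share from 75 to 100% was found in 29 members, from 50 to 75% in 16, from 25 to 50% in 24 and under 25% in 5. ANKRD1, a nuclear ankyrin repeat protein of muscle and a classic target of the Hippo effectors, had the highest share, at 1.55 above baseline with miR-124 and 0.84 above it in the control, but these values rest on the 4 h arrays. Its level was 6.63 with miR-124 and 6.70 in the control at 4 h, and 8.92 with miR-124 and 9.04 in the control at 8 h. Against 8 h alone it stood at 0.40 with miR-124 and −0.32 in the control (share 55.4%), and against 4 h alone at 2.71 and 1.99. In no other member did the baselines of 4 and 8 h differ by more than 1 log2 unit. STXBP6 (amisyn, a SNARE regulator) stood at 1.35 with miR-124 and 0.70 in the control, and H2AC6 at 1.23 with miR-124 and 0.44 in the control. ANKRD46 stood at 1.44 with miR-124 and −0.38 in the control, and ACER2 at 1.18 and −0.12.

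At the other end, the miR-124 arm held near its starting level while the control fell below it. LATS2, a kinase of the Hippo pathway, was at −0.02 with miR-124 and −0.99 in the control. MREG (melanoregulin, an organelle transport protein) was at −0.05 with miR-124 and −0.72 in the control. CAVIN2, a coat protein of caveolae, lay at its baseline with miR-124 (share −0.1%) and at −0.78 in the control. Its miR-124 value was 0.27 against the baseline of 4 h and −0.27 against that of 8 h. The chromatin protein HMGB3 was at 0.06 and −0.82, and the zinc finger protein ZBED1 at 0.06 and −0.56. The largest falls of the control beside these were in RDH11 (−0.82) and KIAA0232 (−0.77).

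**Figure D3:**
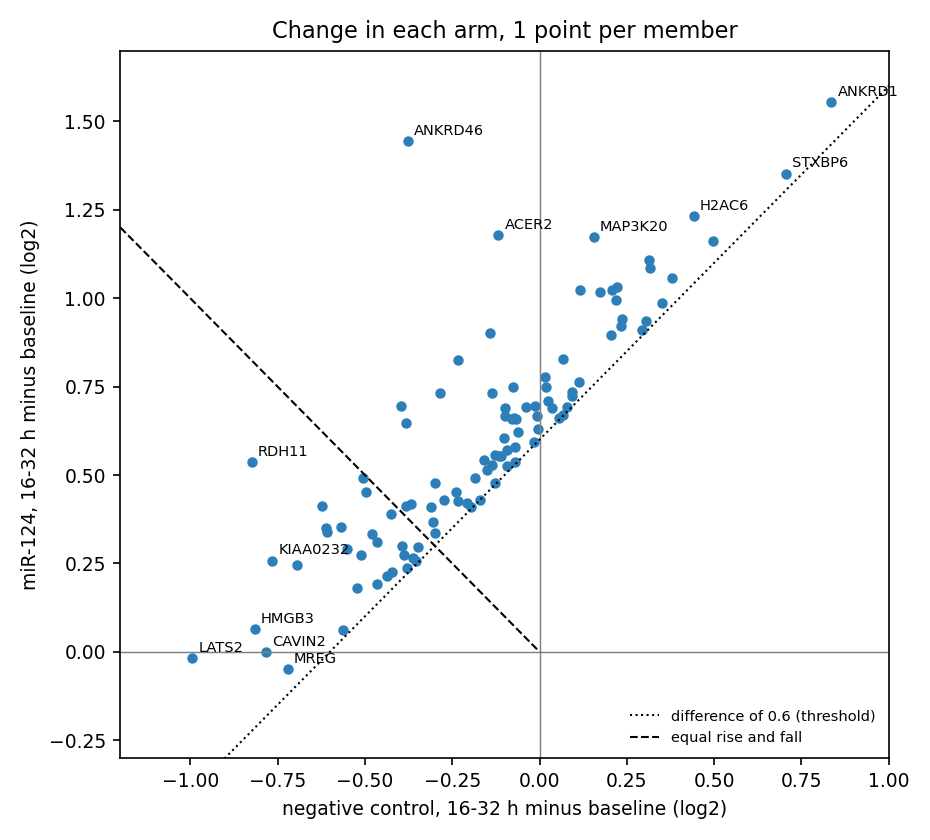
Each point is a member, with the change from baseline at 16 to 32 h in the negative control (x, log2) and with miR-124 (y, log2). The dotted line is the threshold of 0.6, which no member can lie below, and the dashed line marks an equal rise and fall; LATS2, CAVIN2 and MREG lie near 0 on the y axis and ANKRD1 and STXBP6 at the upper right, where the place of ANKRD1 rests on its 4 h arrays.

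The late ratio, which was not used for the threshold, was above 0 in 104 of 104 members. They share the same 4 late arrays, so these signs are not separate results, and the share of all genes above 0 is not given here. The late ratio passed the test in 82 (78.8%), against a background of 9.95% of all genes called higher. None was called lower, against 6.17% of all genes. The median late log2 ratio was 1.18 in the members and −0.01 in all genes, and 66 members reached 1 or more. Across the 104 members, the middle and late ratios had a Spearman rho of 0.323, a description over members that share the same arrays. The ratio was 0.6 or more at both 72 and 120 h in 67 members. In 11 of the 82 called members, leaving out 1 of these times moved the late ratio by over 1.5 times. Without 72 h it was 0.74 for AXL, 1.28 for TP53I3, 0.53 for DDX3Y, 0.39 for HMGB3, 1.08 for PLCXD2, 0.60 for AGO4, 0.90 for DDB2, 1.07 for TAGLN, 1.17 for PLPPR1 and 0.41 for LINC00205. Without 120 h it was 0.67 for DKK4. Of the 104 members, 5 had a mean over the control arrays under the level filter (ACER2, DKK4, NAP1L5, STAR and EPN3), and without them 77 of 99 were called late. The number called late was 52 in a fit on the 4 late arrays alone. Leaving out the pair of 4 h, which was added once the data had been seen, is no second check. The single 8 h pair then leaves no residual, so the late fit is the same by design.

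In the early window limma called no member and no gene (0.0% of all genes in either direction). At an unadjusted p under 0.05, 0 members passed, and 22 genes higher and 24 lower of all genes. The early and late ratios share 1 residual spread in this fit, so the early error also holds the difference between 72 and 120 h. CHST15, with ratios of 0.09 and 0.10 at 4 and 8 h, had an early standard error of 0.73. The lack of calls therefore does not show that early effects were absent. A fit on the 4 early arrays alone called 0 members and 0 genes as well. The early ratio was above 0 in 76 of the 104 members, with a median of 0.05, against −0.01 over all genes. The share of all genes above 0 early is not given here. The difference between the late and the early ratio was itself called in 30 members (28.8%), against 1.62% of all genes called higher, and in 1 member of the 104 that difference lay below 0, without passing the test.

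**Figure D4:**
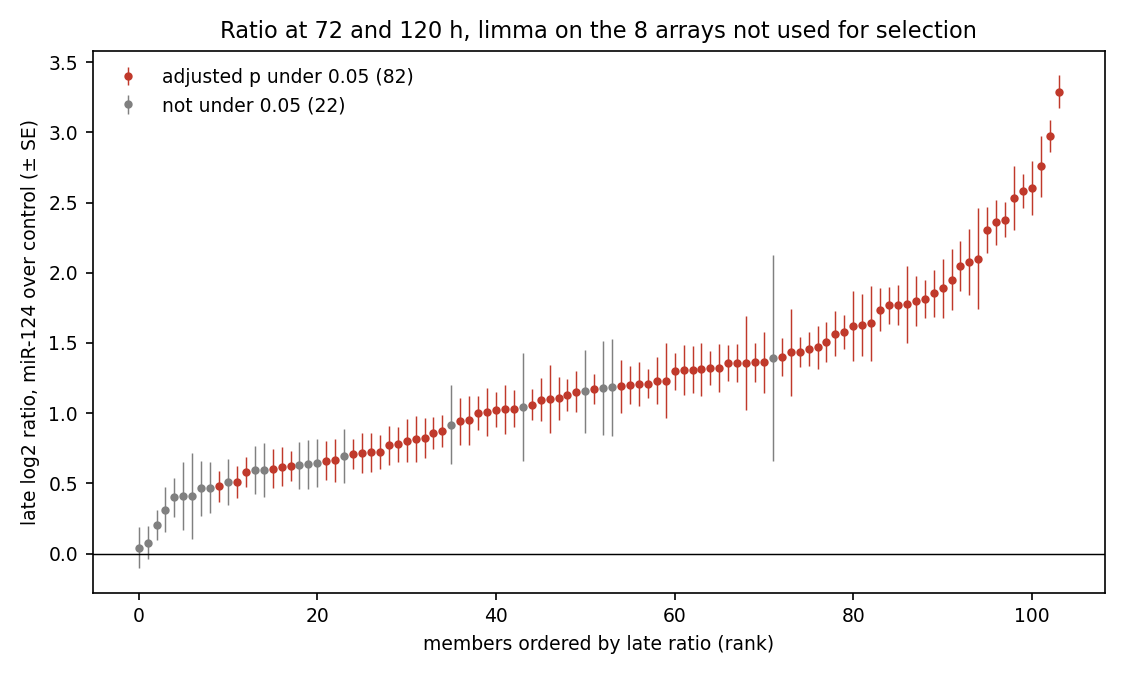
The late log2 ratio of miR-124 over negative control (mean of 72 and 120 h) is drawn for the 104 members in order of size. Standard errors are from limma on the 8 arrays whose ratios were not used for the threshold, though the level filter used all 14 arrays. The 82 members with an adjusted p under 0.05 are red, the other 22 grey, and all 104 points lie above 0.

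Late changes were also tested in each arm against the shared baseline. With miR-124, 75 members (72.1%) were called higher late than baseline, against 16.9% of all genes, and 1, SFT2D2, was called lower (log2 −0.50, adjusted p = 0.0225). In the control, 11 members (10.6%) were called lower, against 1.47% of all genes, and 4 (3.85%) higher, against 1.54%. The 11 were MREG (log2 −1.47, adjusted p = 0.0107), SFT2D2, TDG, LATS2 (log2 −0.97, adjusted p = 0.0219), SMIM13, ZNF738, SH3RF1, ZBED1, HMGB3, SLC4A1AP and SEC24C. The 4 were MICB, SULT1C2, H2BC21 and STXBP6. The control counts depended on the baseline. With the control arrays of 4 and 8 h as the only baseline, limma called 0 members in either direction in the control arm, and 66 higher with miR-124. The share over all genes with that baseline is not given here, so these counts cannot be set against a background. Over the members, the summed late rise with miR-124 made up 90.4% of the summed late ratio.

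The 12 members with the highest middle ratio came from several families. ANKRD46, an ankyrin repeat protein of unclear function, had 9.34, 9.72 and 9.77 log2 units with miR-124 at 16, 24 and 32 h, against 7.90, 7.86 and 7.61 in the control. The mean ratio was 1.82 ± 0.36 (SD, n = 3 pairs), or 3.53-fold. Late it had 10.48 and 10.08 with miR-124, against 8.11 and 8.56 in the control (3.87-fold, limma adjusted p = 0.00726).

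RDH11, a retinol dehydrogenase of the endoplasmic reticulum, had 10.85, 10.82 and 10.81 with miR-124 at 16, 24 and 32 h, against 9.77, 9.30 and 9.33 in the control. Its ratio of 1.36 ± 0.24 (SD, n = 3 pairs) came in larger part from the control arm, with a share of 39.4% for the rise with miR-124. Late it had 11.06 and 11.19 with miR-124, against 10.11 and 10.94 in the control, and the late ratio of 0.60 ± 0.19 missed the threshold (adjusted p = 0.0906). The ratio at 120 h alone was 0.24.

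ACER2, an alkaline ceramidase of the Golgi that releases sphingosine, had 6.07, 6.79 and 7.58 with miR-124 at 16, 24 and 32 h, against 5.53, 5.39 and 5.63 in the control. Its control level lay under the level filter of 6.19 on all 7 arrays, so its folds are taken against a level under that filter. Late it had 8.75 and 7.76 with miR-124, against 5.74 and 5.71 in the control (5.78-fold, adjusted p = 0.00535). SH3RF1, a ubiquitin ligase and scaffold of the JNK cascade, was 2.13-fold higher in the middle window and 4.13-fold late (log2 2.05 ± 0.18, adjusted p = 0.00502).

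CHST15, a sulfotransferase of chondroitin chains, went against the pattern at the last time. It had 7.94, 8.26 and 8.81 with miR-124 at 16, 24 and 32 h, against 7.46, 7.07 and 7.32 in the control, and at 72 h it had 9.74 with miR-124 and a log2 ratio of 3.14. At 120 h it had 9.48 with miR-124 and 9.83 in the control, so that the late ratio of 1.39 ± 0.73 did not pass (adjusted p = 0.267).

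Of the other members among the 12, TAB3, an adaptor of the TAK1 kinase, was 2.06-fold higher in the middle window and 2.35-fold late (adjusted p = 0.0115). The receptor tyrosine kinase AXL was 2.05-fold and 2.70-fold higher (late adjusted p = 0.0325), with late log2 ratios of 2.13 at 72 h and 0.74 at 120 h, and it missed the threshold in the fit on the 4 late arrays alone. Its other probe set above the filter had a middle log2 ratio of 0.14. TPRG1L, a synaptic vesicle protein, was 2.04-fold and 2.19-fold higher, and KIAA0232, which is little described, 2.03-fold and 2.30-fold. MAP3K20, a stress kinase also called ZAK, had 9.46, 9.40 and 9.64 with miR-124 at 16, 24 and 32 h, against 8.50, 8.41 and 8.54 in the control, a mean log2 ratio of 1.02 ± 0.08 (SD, n = 3 pairs). Of its 5 other probe sets above the filter, 3 had middle ratios of 0.95, 0.83 and 0.45 and the others −0.24 and −0.17. ZCCHC10, a zinc knuckle protein, was 2.22-fold higher late (adjusted p = 0.00992).

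**Figure D5:**
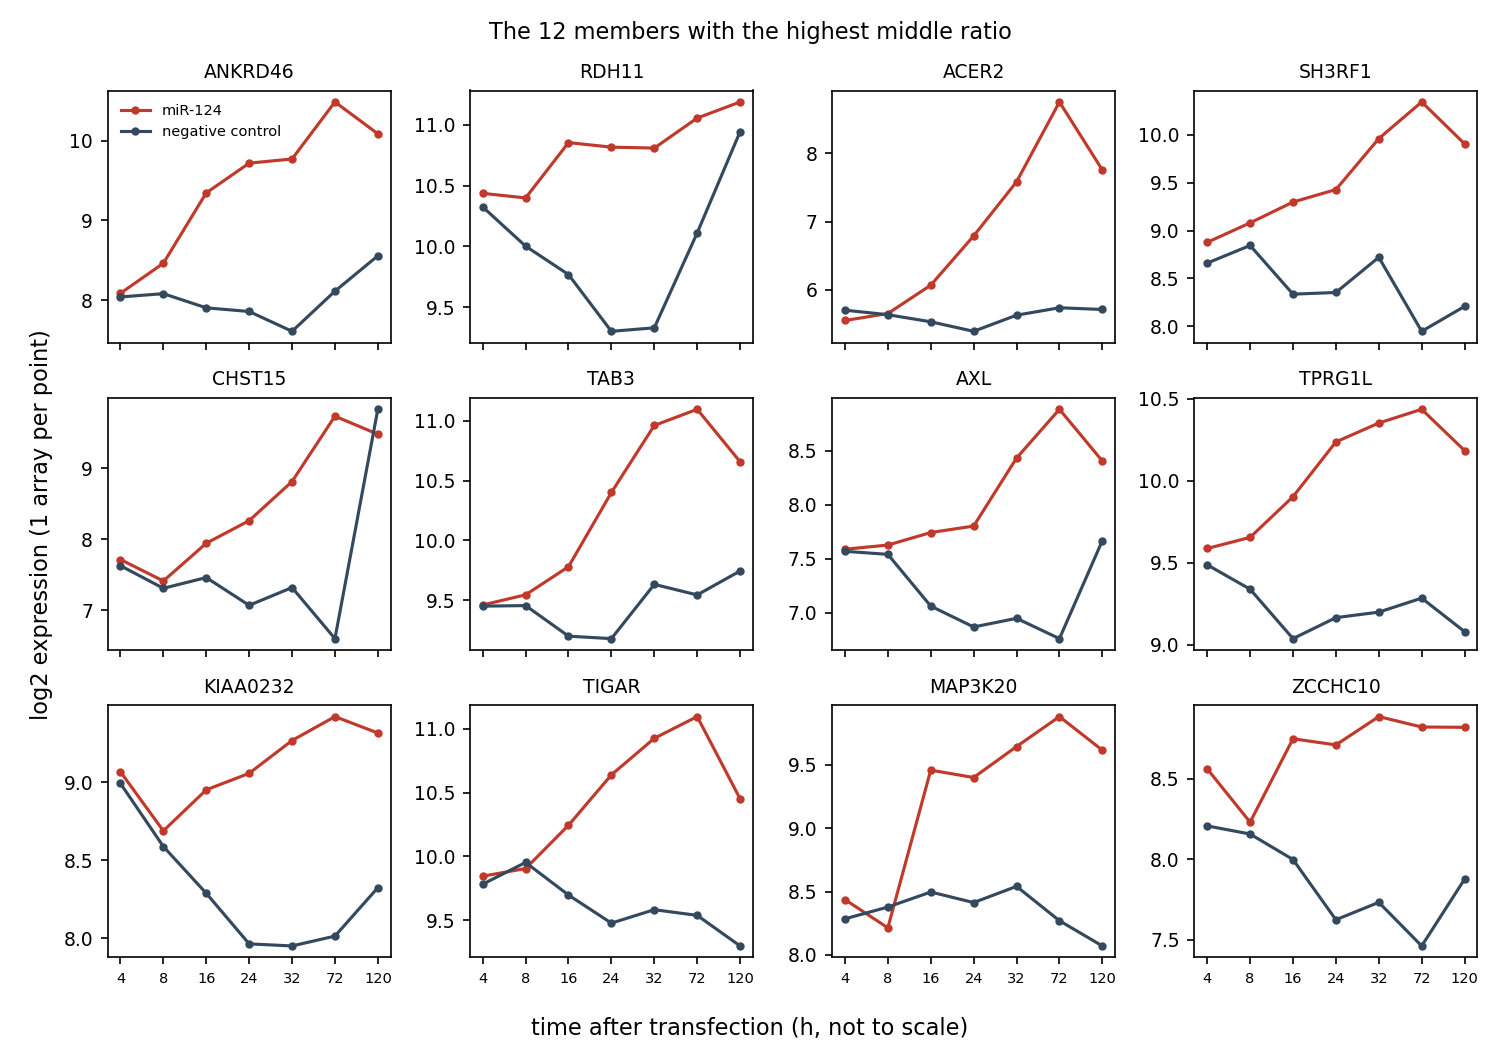
The log2 level on each array is drawn against time in h for the 12 members with the highest middle ratio, with miR-124 in red and negative control in dark blue, 1 array per point. Times are evenly spaced, not to scale. In each panel miR-124 lies above the control at 16 to 32 h, and at 120 h CHST15 has 9.48 with miR-124 and 9.83 in the control, and RDH11 11.19 and 10.94.

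Function groups were written over the members' names after the members were known, so their counts are descriptions. The group of stress kinases and MAP kinase scaffolds, in which other signalling proteins and phosphatases were placed too, held 12 members. Of these 9 passed late, with a median late ratio of 1.16. Beside SH3RF1, TAB3 and MAP3K20 it held EIF2AK4 (GCN2, the kinase that senses uncharged transfer RNA), at 0.82 ± 0.32 in the middle window (SD, n = 3 pairs) and 1.63 ± 0.22 late (adjusted p = 0.0109). MAPKBP1, a scaffold of JNK signalling, was at 0.64 and 1.10 (late adjusted p = 0.0122), and the AMPK-related kinase NUAK1 at 0.70 and 1.31 (late adjusted p = 0.00991). The other probe set of MAPKBP1 above the filter had a middle ratio of −0.06. PIK3R3, a regulatory subunit of PI3 kinase, was at 0.82 and 1.57, and the adaptors NRBP1 and SOCS7 also passed late. NEK7, a kinase of mitosis and the inflammasome (late 0.47 ± 0.18, adjusted p = 0.147), the lipid phosphatase INPP5F (0.64 ± 0.17, adjusted p = 0.0615) and the phosphatase subunit PPP2R2C (0.08 ± 0.11, adjusted p = 0.722) did not.

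The Hippo pathway restrains the coactivators YAP and TAZ through a kinase cascade, in which STK3 (MST2) activates LATS2. Both kinases were members. STK3 had 7.97, 8.24 and 8.20 with miR-124 at 16, 24 and 32 h, against 7.37, 7.19 and 7.64 in the control. LATS2 had 9.80, 9.75 and 10.07 with miR-124, against 9.03, 8.75 and 8.90 in the control. Late, STK3 was 2.31-fold and LATS2 2.50-fold higher (adjusted p = 0.00998 and 0.0101). FRY, a large scaffold that binds kinases related to LATS, had a middle ratio of 0.79 and was 3.48-fold higher late (adjusted p = 0.00609).

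ANKRD1, a transcriptional target of YAP with TEAD factors, had 9.10, 9.26 and 9.77 with miR-124 at 16, 24 and 32 h, against 8.23, 8.61 and 9.13 in the control. Its arms overlapped across times, since both were higher at each later time of the window. Late it had 10.67 and 9.51 with miR-124, against 8.72 and 9.09 in the control, and the ratio of 1.18 ± 0.34 missed the threshold (adjusted p = 0.0688). MYL9, a regulatory light chain of non-sarcomeric myosin, had a middle ratio of 0.76 and a late ratio of 1.89 ± 0.21 (adjusted p = 0.00726). TAGLN (transgelin, an actin-binding protein of smooth muscle) was at 0.66 and 1.64 ± 0.27 (adjusted p = 0.0168). MYL9 and TAGLN lay 0.58 and 0.26 below the control at 4 h, on the miR-124 array that stood apart. The other probe set of MYL9 above the filter had a middle ratio of 0.12, and those of TAGLN had 0.84 and 0.14.

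Of 16 tested genes of a list of contractile and SRF-type genes, these 3 were members, and late 4 were called higher and 1 lower, against 9.95% of all genes higher and 6.17% lower. The others called were ACTA2 (log2 1.07 ± 0.16) and TGFB1I1 (1.03 ± 0.15), both higher, and the tropomyosin TPM1, lower (−0.97 ± 0.13, adjusted p = 0.0114). The list's median late ratio was 0.27, against −0.01 over all genes.

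The promoters of ANKRD1 and LATS2 are shown because both genes are known in the Hippo pathway and both held the core letters of a TEAD site, GGAATG, on the printed strand. Each runs from 250 bases before to 50 bases after the RefSeq start, on GRCh38.p14, with GGAATG in capitals. ANKRD1 lies at chr10:90921038-90921337 on the minus strand, with the letters starting 220 and 128 bases before the start. LATS2 lies at chr13:21061537-21061836 on the minus strand, with the letters 9 bases after the first base of the transcript.
ANKRD1: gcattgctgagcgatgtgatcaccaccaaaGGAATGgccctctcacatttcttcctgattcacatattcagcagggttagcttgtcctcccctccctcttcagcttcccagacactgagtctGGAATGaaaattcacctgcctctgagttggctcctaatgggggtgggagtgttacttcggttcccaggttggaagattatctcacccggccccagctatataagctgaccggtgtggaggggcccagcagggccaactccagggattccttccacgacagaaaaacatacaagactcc
LATS2: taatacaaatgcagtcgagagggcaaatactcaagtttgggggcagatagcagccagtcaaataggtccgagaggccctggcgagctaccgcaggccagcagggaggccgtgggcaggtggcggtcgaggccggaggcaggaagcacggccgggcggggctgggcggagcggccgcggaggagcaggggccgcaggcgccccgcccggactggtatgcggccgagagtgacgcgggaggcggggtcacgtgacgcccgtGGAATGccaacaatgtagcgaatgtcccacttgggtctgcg

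Promoters of 84 of the 104 members were found in the RefSeq table, and of 10545 of the tested genes. On either strand, GGAATG was in 17 of the 84 (20.2%), against 10.9% of all 10545 promoters. The E-box CACGTG was in 8 (9.52%, against 9.9%), the CRE TGACGTCA in 4 (4.76%, against 3.17%) and the AP-1 site TGANTCA in 4 (4.76%, against 4.86%). A TATA box, TATAAA, was in 7 (8.33%, against 6.22%), the CCAAT box, CCAAT, in 34 (40.5%, against 36.3%) and the GC box, GGGCGG, in 56 (66.7%, against 67.1%). The CArG box was in 1 (1.19%, against 1.16%), H2BC21. A p53 half-site was in 7 (8.33%, against 5.36%), TAB3, CMAS, EIF2AK4, PIK3R3, FRY, STXBP6 and YPEL3. These are letter matches in 300 bases, without a test, and the letters of different motifs may overlap.

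The group of p53 pathway, DNA repair and growth brake genes held 8 members, of which 7 passed late, with a median late ratio of 1.14. GDF15, on the list of p53 targets below, was placed in another group. TIGAR, which lowers fructose bisphosphate and spares glucose for the pentose phosphate pathway, had 10.24, 10.64 and 10.93 with miR-124 at 16, 24 and 32 h, against 9.70, 9.48 and 9.58 in the control. Late it had 11.10 and 10.45 with miR-124, against 9.54 and 9.30 in the control (2.56-fold, adjusted p = 0.00609). TP53I3, a quinone oxidoreductase induced by p53, was near the control at 16 h (9.05 against 8.90) and had 11.77 and 9.92 with miR-124 at 72 and 120 h, against 8.85 and 8.64 in the control. Its late ratio was 2.10 ± 0.36 (adjusted p = 0.0184), it was 1.28 without 72 h, and it missed the threshold in the fit on the 4 late arrays alone.

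DDB2, a damage sensor of nucleotide excision repair, had a middle ratio of 0.66 and a late ratio of 1.36 ± 0.22 (adjusted p = 0.0163). PPM1D, the phosphatase WIP1 that is induced by p53 and restrains it, was at 0.68 and 1.06 ± 0.11 (adjusted p = 0.0064). The repair enzymes TDG, a thymine glycosylase, and REV3L, the catalytic subunit of translesion polymerase zeta, were at 0.78 and 0.60 in the middle window and both passed late. CDIP1, a mediator of cell death downstream of p53, was at 0.61 and passed late. YPEL3, a growth suppressor, had a late ratio of 1.18 ± 0.35 that missed the threshold (adjusted p = 0.073), with 8.75 against 8.35 in the control at 120 h.

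Of 21 tested genes of a list of p53 targets, 4 were members, TIGAR, TP53I3, DDB2 and GDF15. Late, 12 of the 21 passed as higher and 0 as lower (all genes 9.95% and 6.17%), and the list's median ratio was 0.57 against −0.01 over all genes. The 12 include the members TIGAR, TP53I3 and DDB2, which were chosen as raised in this series. The list was also written with earlier results of these data known. Beside the members, ZMAT3 was at 1.18 ± 0.21, PHLDA3 at 0.93 ± 0.13, PLK2 at 0.97 ± 0.19 and MDM2, the ubiquitin ligase of p53, at 0.45 ± 0.11 (adjusted p = 0.0415). CDKN1A, the cell cycle inhibitor p21, was at −0.06 ± 0.11 (adjusted p = 0.79), and BAX at 0.22 ± 0.11 (adjusted p = 0.264).

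The histones H2AC6 and H2BC21 belong to the clustered core histone genes, whose transcripts usually lack a poly(A) tail. Their probe sets can match related histone genes, so each value may hold more than 1 gene. H2AC6 had 8.32, 9.17 and 9.56 with miR-124 at 16, 24 and 32 h, against 8.15, 8.15 and 8.38 in the control, and 10.85 and 10.91 late, against 8.16 and 8.43 in the control. H2BC21 had 7.66 and 7.94 with miR-124 at 24 and 32 h, against 6.84 and 6.76 in the control, and 10.26 and 10.39 late, against 7.31 and 7.39 in the control. Neither ratio had reached 0.6 at 16 h, and late they were 5.99-fold and 7.86-fold (adjusted p = 0.00176 and 0.000948). Of 8 tested genes of a histone list, 5 were called higher late, against 9.95% of all genes, and none lower, the others being H1-2 (adjusted p = 0.000948), H2BC5 (2.92 ± 0.11) and H2BC4 (2.45 ± 0.12). The replacement histone H2AZ1 was at −0.62 ± 0.20 (adjusted p = 0.0974).

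The promoters of both members are shown because they move together and share the TATA and CCAAT boxes usual in this family. TATAAA and CCAAT on either strand are in capitals (TTTATA and ATTGG on the other strand). H2AC6 lies at chr6:26123922-26124221 on the plus strand and H2BC21 at chr1:149886633-149886932 on the minus strand (GRCh38.p14, RefSeq). The TATA box starts 31 bases before the start in H2AC6 and 30 bases before it in H2BC21, which has another match farther up.
H2AC6: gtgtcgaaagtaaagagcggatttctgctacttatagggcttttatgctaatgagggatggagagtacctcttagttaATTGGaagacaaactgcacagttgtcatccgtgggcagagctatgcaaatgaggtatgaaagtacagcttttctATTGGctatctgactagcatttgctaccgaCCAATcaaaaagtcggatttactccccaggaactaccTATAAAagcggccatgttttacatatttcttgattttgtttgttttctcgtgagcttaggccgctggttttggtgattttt
H2BC21: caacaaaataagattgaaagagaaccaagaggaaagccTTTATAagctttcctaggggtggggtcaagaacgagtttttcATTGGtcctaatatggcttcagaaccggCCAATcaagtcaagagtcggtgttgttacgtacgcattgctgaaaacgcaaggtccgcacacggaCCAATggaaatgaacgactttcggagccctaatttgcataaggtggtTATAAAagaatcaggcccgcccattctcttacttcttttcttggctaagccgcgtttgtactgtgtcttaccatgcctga

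The other chromatin proteins and transcription factors in that group of 12, of which 10 passed late, were mostly smaller. The osmotic stress factor NFAT5 had a middle ratio of 0.73 ± 0.05 (SD, n = 3 pairs) and a late ratio of 0.72 ± 0.14 (adjusted p = 0.0276). SP4, a GC box factor prominent in neurons, was at 0.72 and 0.71 ± 0.11 (adjusted p = 0.0145). NAP1L5, a relative of the histone chaperone NAP1, was at 0.76 and 2.08 ± 0.23 (adjusted p = 0.00732), and ZNF165 at 0.66 and 1.74 ± 0.15. The mean of NAP1L5 over the control arrays lay under the level filter. HMGB3, NFATC2IP, ZBED1 and MYEF2 also passed late. The nuclear receptor RORA (0.92 ± 0.28, adjusted p = 0.0837) and ZNF738 (0.51 ± 0.16, adjusted p = 0.0898) did not.

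Secreted ligands and surface proteins gave 9 members, of which 5 passed late. KITLG, the ligand of the KIT receptor, had 8.36, 8.59 and 8.70 with miR-124 at 16, 24 and 32 h, against 7.96, 7.85 and 7.71 in the control, and 10.22 and 9.94 late, against 7.65 and 7.80 (5.13-fold, adjusted p = 0.00381). DKK4, a secreted Wnt antagonist, had a middle ratio of 0.85 and a late ratio of 1.23 ± 0.26 (adjusted p = 0.0325). Its mean over the control arrays lay under the level filter. ASTN2 (astrotactin, known from neuron migration) and MICB, a stress ligand of the NKG2D receptor on natural killer cells, passed late as well, at 1.17 ± 0.11 and 0.62 ± 0.11.

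FST (follistatin, which binds activin) had 10.00 and 9.83 late with miR-124, against 9.10 and 9.91 in the control (0.41 ± 0.24, adjusted p = 0.322). The activin receptor ACVR2B was at 0.70 ± 0.19 late (adjusted p = 0.0617). GDF15, a stress cytokine and p53 target, had 12.74 and 12.47 with miR-124, against 11.65 and 12.74 in the control (0.41 ± 0.30, adjusted p = 0.439). FAM3C, a cytokine-like protein, had the lowest late ratio of the 104 (0.04 ± 0.15, adjusted p = 0.889), with 10.75 and 10.46 against 10.95 and 10.17 in the control.

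Lipid and sterol proteins gave 10 members, of which 8 passed late. Beside ACER2, the sphingolipid enzymes CERS5, a ceramide synthase, and SAMD8, which makes ceramide phosphoethanolamine, were at 0.64 and 0.66 in the middle window. Late, SAMD8 passed (0.86 ± 0.11, adjusted p = 0.0105) and CERS5 did not (0.63 ± 0.17, adjusted p = 0.0578). STAR, which carries cholesterol into mitochondria for steroid synthesis, had 6.19, 6.43 and 7.10 with miR-124 at 16, 24 and 32 h, against 5.88, 5.92 and 5.90 in the control. Its late levels of 9.55 and 9.25 with miR-124, against 6.38 and 5.85 in the control, gave the highest late ratio of the members (3.29 ± 0.12, adjusted p = 0.000948). The mean of STAR over the control arrays lay under the level filter of 6.19. It therefore passed that filter through the miR-124 arrays, of which the late ones were tested here. SULT1C2, a cytosolic sulfotransferase, had a middle ratio of 0.68 and a late ratio of 2.60 ± 0.19 (adjusted p = 0.00393).

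PLPPR1, a brain-enriched relative of lipid phosphatases, was at 0.65 and 1.77 ± 0.27 (late adjusted p = 0.0149), and PLCXD2 at 0.73 and 1.62 ± 0.25. The organelle contact proteins PDZD8, of the endoplasmic reticulum, and ACBD5, of peroxisomes, were at 0.78 and 0.60 in the middle window and passed late at 0.72 ± 0.12 and 0.77 ± 0.14.

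Microtubule and cortex proteins gave 9 members, of which 8 passed late. KIF3A and KIF3B are the motor subunits of kinesin-2, which carries cargo along axons and cilia. KIF3A had 7.99, 8.20 and 8.26 with miR-124 at 16, 24 and 32 h, against 7.37, 7.49 and 7.47 in the control, and late was 2.50-fold higher (adjusted p = 0.00535). KIF3B had 10.09, 10.42 and 10.65 with miR-124, against 9.71, 9.62 and 9.54 in the control, and late was 2.64-fold higher (adjusted p = 0.00587). Their paralog KIF3C lay just outside the threshold. CAMSAP2, which caps microtubule minus ends, had a middle ratio of 0.79 ± 0.05 (SD, n = 3 pairs) and a late ratio of 1.44 ± 0.11 (adjusted p = 0.00393).

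EPB41L1, a membrane skeleton protein of neurons, had ratios of 0.09, 0.63 and 1.18 at 16, 24 and 32 h. Late it had 10.65 and 10.31 with miR-124, against 7.45 and 8.00 in the control (6.77-fold, adjusted p = 0.00451). The other probe sets of EPB41L1 above the filter had middle ratios of 0.43 and −0.11. CYFIP2, a subunit of the WAVE actin complex, had ratios of 0.08, 0.71 and 1.40 at the same times and was 4.93-fold higher late (limma adjusted p = 0.00393). Its other probe set above the filter had a middle ratio of 0.24. DOCK4, an activator of Rac, the ezrin relative RDX and the tubulin gene TUBA4B passed late too. The centrosome protein WRAP73 did not (0.40 ± 0.14, adjusted p = 0.118).

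Vesicle traffic gave 10 members, of which 7 passed late. STXBP6 had 8.82, 8.71 and 8.70 with miR-124 at 16, 24 and 32 h, against 8.33, 8.09 and 7.86 in the control, and 10.42 and 10.64 late, against 8.04 and 8.26 (5.20-fold, adjusted p = 0.00204). RAB17, a Rab GTPase of polarised epithelia, had a middle ratio of 0.77 and a late ratio of 1.81 ± 0.14 (adjusted p = 0.00394). MREG had 9.67 and 9.39 late with miR-124, against 8.31 and 7.83 in the control (1.46 ± 0.12, adjusted p = 0.00451). The COPII coat subunit SEC24C and the endocytic proteins FCHO2, EPN3 and MICALL1 passed late as well. The mean of EPN3 over the control arrays lay under the level filter. SFT2D2 (0.64 ± 0.17, adjusted p = 0.0586), TMED6 (0.59 ± 0.17, adjusted p = 0.0709) and CAVIN2 (1.04 ± 0.39, adjusted p = 0.13) did not.

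Enzymes of glycan chains gave 4 members, of which 2 passed late. CMAS, which activates sialic acid, had 8.19, 8.05 and 8.04 with miR-124 at 16, 24 and 32 h, against 7.59, 7.13 and 6.72 in the control, and a late ratio of 1.19 ± 0.19 (adjusted p = 0.0163). CHPF, a chondroitin polymerising factor, was at 0.64 ± 0.63 in the middle window (SD, n = 3 pairs), with −0.07 at 16 h, and 1.10 ± 0.24 late (adjusted p = 0.0346). It lay 0.76 below the control at 4 h. MGAT4A, a branching enzyme of N-glycans, was at 0.96 ± 0.14 in the middle window (SD, n = 3 pairs) and at 0.61 and 0.02 at 72 and 120 h (late adjusted p = 0.26).

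All 7 members of the RNA group passed late. AGO4, an Argonaute protein of the complex that small RNAs load into, had 7.34, 7.56 and 7.71 with miR-124 at 16, 24 and 32 h, against 6.84, 6.82 and 6.91 in the control, and a late ratio of 1.36 ± 0.33 (adjusted p = 0.0463). Its other probe set above the filter had a middle log2 ratio of 0.10. AGO4 was the only member in a list of 18 tested genes of the small RNA machinery, of which 2 were called higher late and 2 lower (all genes 9.95% and 6.17%). Its paralogs AGO1 (0.28 ± 0.13), AGO2 (−0.53 ± 0.16) and AGO3 (0.22 ± 0.11) did not pass late. CPEB4, which binds cytoplasmic polyadenylation elements, was at 0.91 and 1.31 ± 0.18 (late adjusted p = 0.0109). The RNA helicase DDX3Y, SLC4A1AP and the non-coding transcripts SNHG33 and LINC00205 had middle ratios of 0.95, 0.66, 0.67 and 0.60.

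Of 4 transporters and channels, SLC4A11, a borate transporter relative, was at 1.85 ± 0.17 late (limma adjusted p = 0.00519) and the mitochondrial carrier SLC25A14 2.0-fold higher (adjusted p = 0.00894). The other probe sets above the filter had middle ratios of 0.14 for SLC4A11 and 0.63 for SLC25A14. The calcium channel subunit CACNA2D4 (1.16 ± 0.29, adjusted p = 0.0508) and the copper protein CUTC (0.20 ± 0.11, adjusted p = 0.264) missed the threshold. Of the 13 members grouped as other or little described, 12 passed late, all but FAM217B (0.46 ± 0.20, adjusted p = 0.174). BEX1, a neuronal adaptor and the only member among 15 tested genes of a list of REST-repressed neuronal genes, had a middle ratio of 0.63 and a late ratio of 1.21 ± 0.11 (adjusted p = 0.00502), and it was the only gene of that list called late. The others were GLCCI1 (1.77 ± 0.13), SNN (1.77 ± 0.14), SMIM13 (1.47 ± 0.15), TAPT1 (1.36 ± 0.14), WBP1L (1.31 ± 0.19), LMLN (1.03 ± 0.17), FAM169A (1.01 ± 0.17) and LRRC37B (0.58 ± 0.11), beside ANKRD46, TPRG1L and KIAA0232.

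Of 16 lists in all, 10 held no member among the genes written into them, which are a sample of each class and do not hold members such as SH3RF1, RAB17 or FST. They were lysosome and autophagy, the interferon response, splicing regulators, cell cycle brakes, ubiquitin ligases and deubiquitinases, TGF-beta and BMP signalling, MAP kinase feedback, Rab GTPases and vesicle traffic, the oxidative stress response and apoptosis regulators. The counts below stand against 9.95% of all genes higher and 6.17% lower late. Late, 7 of 22 lysosome and autophagy genes were higher and 2 lower, 3 of 14 interferon genes higher and none lower, and 4 of 17 apoptosis regulators higher and none lower. Calls higher and lower late were 3 and 2 of 23 splicing regulators, 0 and 1 of 15 cell cycle brakes, 3 and 2 of 23 ubiquitin genes and 5 and 2 of 20 TGF-beta genes. They were 4 and 2 of 14 MAP kinase feedback genes, 4 and 1 of 21 vesicle genes and 0 and 2 of 15 oxidative stress genes. The list of retinol enzymes and nuclear receptors held RDH11, with 0 of 17 called higher late and 2 lower.

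The threshold has no natural gap. The members just inside it were LINC00205, REV3L and EPN3, with middle ratios of 0.60 each, and THBS1, TOR1A and KIF3C lay just outside with 0.60, 0.60 and 0.59. The probe sets of 24 members carry a suffix for matching several transcripts or genes. For 57 members, 85 other probe sets above the level filter measured the same gene on the same arrays. The gene's median over these was above 0 in 56 of 57, 0.3 or more in 41 and 0.6 or more in 13. Of the 85, 5 had a middle ratio below 0, for EPB41L1, MAP3K20, MAPKBP1 and RORA. For SMIM13, TAPT1, SAMD8, INPP5F and ACVR2B, every other probe set above the filter had a middle ratio between 0.06 and 0.23.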

How the data were processed

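Total RNA of transfected HepG2 cells was measured on one-colour arrays. Biotinylated cRNA was hybridised, per the labels' protocols. The authors deposited log2 values for each probe set, and the submitters' processing notes name RMA for them. Its version is not given in the sources used here. RMA gives every array the same distribution, which hides any change in the total RNA of a cell. The number of arrays limits the precision.

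Of 54675 probe sets, 62 were controls, 41091 had 1 gene symbol, 1801 several and 11721 none listed. Each of 19775 genes was taken from its probe set with the highest mean over 14 arrays, and 13137 genes lay above the median of the non-control probe sets' means (6.19). Identifiers of 13122 matched the reference gene table, all with the same symbol.

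Tests used limma 3.58.1 in R 4.3.3 (lmFit, eBayes, two-sided, adjusted p under 0.05). The early and late ratios came from 1 fit on 8 arrays with time as a block (2 residual degrees of freedom), the changes by arm from a fit of 4 means (4 residual degrees of freedom). The arrays of a time were paired from their labels, and deviations from the arm means correlated at 0.21 to 0.48 within the 7 pairs. The fits were tested on simulated data. Alternatives covered the block, the filter, centring, the arrays fitted, each time left out, the baseline and a 1.5-fold minimum. Named genes were the 12 highest members, the 10 highest and 3 lowest late, the 5 with the largest change in each arm, the members of 16 lists, those at the threshold, and up to 4 per function group with values, to which other members were added. The members and lists were chosen with earlier results of these data known. Figures used matplotlib 3.10.9.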

Additional observations from a re-analysis of the deposited data

Results flagged for a closer look

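The level of CHST15 in the negative control at 120 h was 9.83, far above the other 6 control arrays, where the gap to the next was more than 0.568 of the range. It was the only such array among 26 groups of 7 examined (the 12 highest members and the members' median in each arm). For independent draws, chance would give about 1 in 20, which 1 of 26 does not exceed. Each group holds 7 different times, so that rate may not apply here. The late ratio exceeded the early ratio by limma's test of the difference in 30 of the 104 members. Of the genes named next, STAR and ACER2 passed the level filter through their miR-124 arrays. Among the genes named by rule, the difference was 3.45 for STAR, 2.95 for H2BC21, 2.80 for EPB41L1, 2.70 for SULT1C2, 2.60 for ACER2, 2.48 for H2AC6, 2.46 for KITLG, 2.39 for STXBP6, 2.35 for CYFIP2, 2.09 for MYL9, 1.82 for SH3RF1, 1.58 for MAP3K20, 1.35 for TIGAR and 1.08 for BEX1, all on the log2 scale.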

How the results depend on the processing

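The 82 members called higher late became 84 without the block on time (no replicate block). In the fit on the 4 late arrays alone they became 52, all 52 of them among the 82. The fit without 4 h (added after seeing the data) repeats that late fit by design, since the single 8 h pair leaves no residual. Leaving out 72 or 120 h gave 82 and 97, with 78 and 82 shared. Over all genes, the 2117 calls became 3821 in the 14-array fit of 3 windows, 469 on the late arrays alone or without 4 h, and 4382 without 120 h. The 14-array fit also used the arrays of the middle window, whose ratios chose the members. Its calls of members are therefore not a separate check. The late minus early difference was called in 30 members, and in 63 in the 14-array fit. Over all genes its 253 calls became 391 with no replicate block, 545 with no level filter and 1521 in the 14-array fit. In the control arm late, the 4 members higher and 11 lower became 2 and 4 with both arms at 4 h as baseline, 2 and 1 with both at 8 h, 0 and 0 with the control arrays, 14 and 23 without 72 h, and 3 and 17 without 120 h. For these control arm counts, the share over all genes under each alternative is not given here. They therefore cannot be set against a background. Without 72 h or without 120 h, 1 late array per arm is left, so no conclusion is drawn from those counts. The number of members ranged from 62 without 32 h to 207 without 16 h, which shared 58 and 103 of the 104. The median share of 81.9% ranged from 76.3 to 85.1% over 3 other baselines. The late ratio turned to −0.35 for CHST15 and −0.27 for GDF15 without 72 h, and to −0.20 for FAM3C without 120 h. AXL, TP53I3, HMGB3, DDB2, TAGLN and AGO4 missed the threshold on the 4 late arrays alone, HMGB3 also without 72 h and AGO4 with centred arrays. RDH11, CHST15, ANKRD1, CAVIN2 and GDF15 passed without 120 h, and RDH11 and ANKRD1 in the 14-array fit. The early window had no call under any alternative run. Causes were not tested. With 1 array per arm and time, no spread within a time could be had.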
